A study of Macaca mulatta with 4 samples.

Results

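The 10 genes described here encode intermediate filaments of astrocytes and proteins that astrocytes are known to raise in reactive or acute-phase states: GFAP, VIM, SERPINA3, CHI3L1, CD44, TNC, OSMR, STAT3, S100B and AGT. They were chosen by known role, with earlier results of these data known, as the rows of the deposited count table that carry these symbols. All 10 symbols had 1 row each among the 33618 genes of the table, and all 10 passed the filter on low counts, as did 17693 genes in all. The libraries were made from prefrontal cortex of wild type infant rhesus macaques (Macaca mulatta). The 2 control libraries, replicates 2 and 3, are labelled as given no agent, with no word on how their animals were handled. The 2 sevoflurane libraries, also replicates 2 and 3, came from animals that inhaled the anaesthetic sevoflurane at about 2.5 to 3% for 4 hours on 3 occasions. The first was near postnatal day 7 and the others followed at 14 and 28 days, and cortex was collected right after the last. The exact age at sampling is not stated. Nothing in the labels says that each library is a different animal. The p-values therefore reflect the spread among these libraries alone, and that spread may be technical.

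Astrocytes are the glia that buffer transmitters and ions, contact vessels with their endfeet and support synapses. Their cytoskeleton contains the intermediate filaments GFAP and vimentin, of which vimentin is more typical of immature glia and is also abundant in vascular and meningeal cells. After injury or inflammation, cytokines of the interleukin-6 family act through receptors such as OSMR and the transcription factor STAT3 to raise GFAP, SERPINA3 and other genes, a state called reactive. In the infant cortex astrocytes are still maturing, and GFAP is a marker of that maturation as well as of reactivity.

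Libraries held between 7793757 and 11706115 counts. Control replicate 3 was the shallowest and stood apart from the other 3 on the first principal component (59.6 against -32.0 to -3.12). All 10 neuron markers and all 24 genes of a list of homeostatic astrocyte genes were detected and passed the filter. Levels below are in CPM, counts divided by library size after TMM scaling (trimmed mean of M values), and are not per transcript length, so they are compared between libraries and not between genes. Log2 fold changes are sevoflurane against control, from edgeR's quasi-likelihood test with their standard error (SE), and adjusted p-values are Benjamini-Hochberg values over all tested genes. A gene was called at an adjusted p under 0.05.

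Of the 10 genes, GFAP was lower after sevoflurane, 0 were higher and 9 were not called. The share called over all tested genes was 0.599% in either direction, 0.537% lower and 0.0622% higher. Log2 fold changes were below 0 for 9 of the 10 genes, with a median of -0.83, against -0.00 over all tested genes, of which 50.3% were below 0. In 7 of the 10 (GFAP, SERPINA3, CHI3L1, CD44, TNC, S100B and AGT) both sevoflurane libraries lay below both controls. That arrangement occurred in 20.4% of all tested genes, and its reverse in 20.8%. Before adjustment these 7 had an edgeR p under 0.05, a level reached by 9.92% of tested genes. Because the 10 were chosen with earlier results of these data known, such counts are a description only. VIM, OSMR and STAT3 overlapped between the groups. The count of called genes depended on the test, with 6 of 10 called by DESeq2 and 2 by limma-voom. Over all 17693 tested genes, edgeR called 106, DESeq2 279 and limma-voom 110. Some genes, OSMR, HAS2, ANPEP and TM4SF1 among them, had no adjusted p by DESeq2 and count as not called there. As the tissue was measured in bulk, fewer cells of a type and less RNA per cell cannot be told apart for any of these genes.

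**Figure D1:**
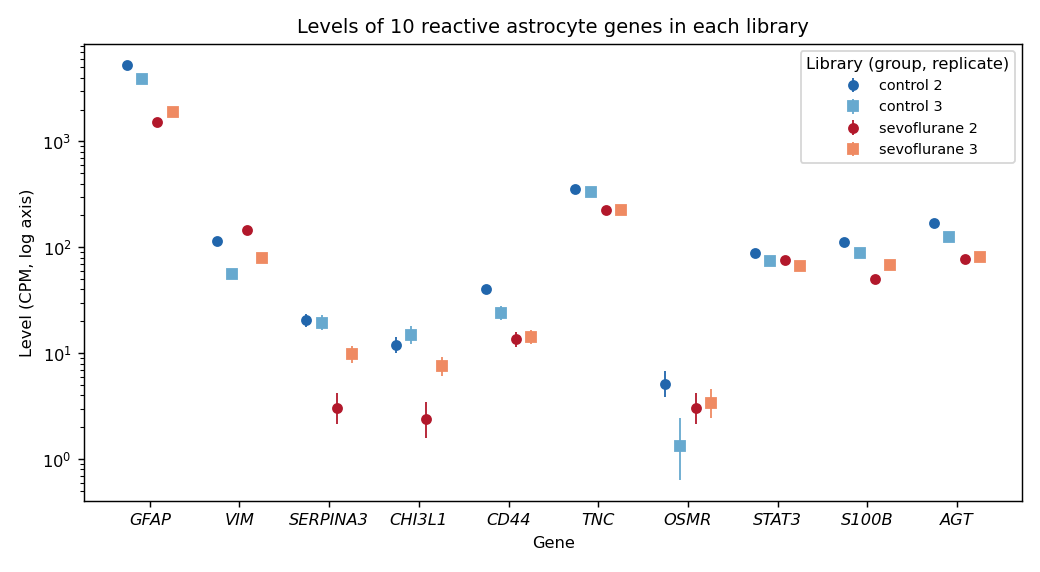
Level of each of the 10 genes (CPM, log axis) in the 2 control libraries (blue) and the 2 sevoflurane libraries (red and orange). Bars are exact 95% Poisson intervals, which cover counting error only. For 7 genes both sevoflurane libraries lie below both controls, and VIM, OSMR and STAT3 overlap.

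GFAP, the main intermediate filament of astrocytes, had 5249 and 3877 CPM in control replicates 2 and 3, and 1531 and 1898 CPM in sevoflurane replicates 2 and 3. The lower control was 2.04 times the higher sevoflurane library. GFAP alone took 0.535% and 0.375% of all counts in the controls and 0.153% and 0.191% after sevoflurane. GFAP fell to 37.6% of the control mean, and its log2 fold change was -1.41 (95% interval -1.78 to -1.05, SE 0.16, adjusted p = 0.00928 by edgeR). It was called in 11 of 11 alternative settings, with log2 fold changes from -1.61 to -1.18. The adjusted p ran from 6.5e-15, in the fit with the replicate number as a block, to 0.0217. No label pairs the libraries by that number.

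VIM, which encodes vimentin, had 116.0 and 55.4 CPM in the controls and 144.6 and 79.4 CPM after sevoflurane. The highest and the lowest library of these 4 were sevoflurane replicate 2 and control replicate 3, and the libraries differed 2.09-fold within the controls and 1.82-fold within the sevoflurane group. Its log2 fold change was 0.38 (SE 0.34, 95% interval -0.39 to 1.14, adjusted p = 0.794 by edgeR). The sign depended on 2 libraries. Leaving out control replicate 3 gave -0.05 and leaving out sevoflurane replicate 2 gave -0.11. It was 1.01 without control replicate 2 and 0.75 without sevoflurane replicate 3.

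The 2 filament genes thus took different positions in the same libraries. The ratio of GFAP to VIM, both in CPM, was 45.2 and 69.9 in the controls and 10.6 and 23.9 after sevoflurane, so that both sevoflurane libraries lay below both controls. The difference between the 2 fold changes was not tested. Beside VIM, the summed CPM of 14 markers of meningeal and vascular fibroblasts, cells that also make vimentin, was 363.8 and 203.0 in the controls and 840.9 and 311.6 after sevoflurane. Sevoflurane replicate 2 was thus the highest and control replicate 3 the lowest by that sum as well as by VIM, and the part of these cells in the VIM values was not tested. This sum leaves out PDGFRA, which precursors of oligodendrocytes express too.

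Other intermediate filament genes and the linkers that tie filaments to the cell were measured for 13 of 14 listed genes. None of the 13 was called by edgeR in either direction (1 had an unadjusted p under 0.05, and 0 were called by DESeq2 or limma-voom), and their median log2 fold change was -0.07. NES, the nestin of neural progenitors and immature astrocytes, had 45.6 and 63.4 CPM in the controls and 39.0 and 36.0 CPM after sevoflurane (-0.54, SE 0.19, adjusted p = 0.366). Leaving out control replicate 2 gave NES -0.76, and leaving out control replicate 3 gave -0.28. PLEC, the linker plectin, had -0.21 (SE 0.12, adjusted p = 0.622), with -0.12 without sevoflurane replicate 3. NEFL, a neurofilament of neurons, had 0.16 (SE 0.18, adjusted p = 0.851), with -0.12 without control replicate 2 and 0.50 (adjusted p = 0.0462, within 0.0462 to 0.9998 over its alternatives) without control replicate 3.

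OSMR, the receptor subunit for oncostatin M, rested on few reads, with counts of 53 and 10 in the controls and 36 and 40 after sevoflurane. These corresponded to 5.17 and 1.33 CPM in the controls and 3.08 and 3.39 CPM after sevoflurane. The counting interval of control replicate 3 (0.636 to 2.44 CPM) lay below that of control replicate 2 (3.87 to 6.76 CPM), and both sevoflurane libraries lay between the controls. Its log2 fold change was -0.04 (SE 0.59, 95% interval -1.37 to 1.29, adjusted p = 0.991 by edgeR), so changes beyond 2-fold in either direction lie within the interval. Leaving out control replicate 2 gave 1.28, and leaving out control replicate 3 gave -0.68.

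STAT3, the transcription factor activated by these receptors, had 88.8 and 74.8 CPM in the controls and 76.4 and 67.3 CPM after sevoflurane. Sevoflurane replicate 2 lay between the controls. Its log2 fold change was -0.19 (SE 0.15, 95% interval -0.53 to 0.15, adjusted p = 0.765 by edgeR), and the interval leaves out a fall of 2-fold. Leaving out a control gave -0.06 (replicate 2) or -0.31 (replicate 3), and leaving out sevoflurane replicate 3 gave -0.10. STAT3 acts mainly through phosphorylation, which RNA counts do not measure.

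Of 29 further genes of this cytokine pathway, 20 were tested and none was called by edgeR (3 had an unadjusted p under 0.05, and 0 were called by DESeq2 or limma-voom), and the median log2 fold change was -0.02. The 9 genes below the filter had at most 21 counts in any library. They included the ligands IL6, LIF, OSM, CLCF1 and IL11 and the feedback inhibitor SOCS3, with counts for SOCS3 of 8 and 3 in the controls and 20 and 10 after sevoflurane. The 3 tested genes with the smallest p are nuclear or cytoplasmic outputs of many signals. PIM1, a kinase induced by STAT factors, had 8.88 and 11.7 CPM in the controls and 20.1 and 19.7 CPM after sevoflurane (0.96, SE 0.23, adjusted p = 0.150). JUNB, an AP-1 subunit that neuronal activity also induces, had 36.0 and 37.0 CPM in the controls and 23.3 and 21.2 CPM after sevoflurane (-0.71, SE 0.17, adjusted p = 0.152). MYC had -1.10 (SE 0.35, adjusted p = 0.299). The direction thus differed between PIM1 on the one side and JUNB and MYC on the other, and none of the 3 passed the test.

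SERPINA3, a secreted inhibitor of serine proteases and an acute-phase protein, had 20.4 and 19.5 CPM in the controls and 3.08 and 9.84 CPM after sevoflurane. The controls were 1.05-fold apart, while sevoflurane replicate 2 was at 0.312 times sevoflurane replicate 3. The log2 fold change was -1.62 (SE 0.43, 95% interval -2.59 to -0.66, adjusted p = 0.193 by edgeR), and the gene was not called. It was -2.69 without sevoflurane replicate 3 (adjusted p = 1.75e-07) and -1.02 without sevoflurane replicate 2 (adjusted p = 0.262), within a range of 1.75e-07 to 0.329 over the alternatives.

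CHI3L1, the secreted chitinase-like protein YKL-40 made by reactive astrocytes and macrophages, had 12.003 and 14.98 CPM in the controls and 2.39 and 7.55 CPM after sevoflurane. As for SERPINA3, sevoflurane replicate 2 was far the lowest library, at 0.317 times sevoflurane replicate 3, on counts of 28 and 89. The log2 fold change was -1.43 (SE 0.45, 95% interval -2.45 to -0.41, adjusted p = 0.296 by edgeR). It was -2.49 without sevoflurane replicate 3 (adjusted p = 4.78e-05) and -0.83 without sevoflurane replicate 2 (adjusted p = 0.787), the latter 2 adjusted values being the ends of the range over the alternatives. The ratio of SERPINA3 to CHI3L1 stayed between 1.29 and 1.70 in the 4 libraries, and the 2 genes had the widest intervals of the 7 that did not overlap between groups.

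CD44, the cell surface receptor for hyaluronan, had 40.2 and 24.002 CPM in the controls and 13.5 and 14.3 CPM after sevoflurane. The sevoflurane libraries were close together, and the controls were 1.68-fold apart. Its log2 fold change was -1.21 (SE 0.26, 95% interval -1.79 to -0.63, adjusted p = 0.0945 by edgeR), which was not called. CD44 was called in 3 of the 4 fits that left out a library, at -1.53 without control replicate 3 (adjusted p = 0.0159), -1.17 without sevoflurane replicate 2 (0.0387) and -1.25 without sevoflurane replicate 3 (0.0138). It was not called without control replicate 2, where it was -0.79 (adjusted p = 0.12), and the adjusted p ranged from 0.000116 to 0.18 over all alternatives.

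TNC, the matrix glycoprotein tenascin-C of developing and injured tissue, had 357.5 and 329.5 CPM in the controls and 225.5 and 227.5 CPM after sevoflurane. It had the smallest shift of the 7 genes without overlap and close agreement within each group. The log2 fold change was -0.60 (SE 0.12, 95% interval -0.86 to -0.34, adjusted p = 0.0658 by edgeR). TNC was called without control replicate 2 (-0.54, adjusted p = 0.0338) and without control replicate 3 (-0.66, adjusted p = 0.0259), in a range of adjusted p from 0.00271 to 0.444 over the alternatives.

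Of 22 listed partners of hyaluronan and tenascin, 19 were tested and none was called by edgeR (3 had an unadjusted p under 0.05, with 1 called by DESeq2 and 0 by limma-voom), with a median of -0.16. MSN, the moesin that links CD44 to actin, had 94.9 and 79.6 CPM in the controls and 61.1 and 55.5 CPM after sevoflurane (-0.58, SE 0.15, adjusted p = 0.190). VCAN, the hyaluronan-binding proteoglycan versican, had 329.1 and 193.1 CPM in the controls and 151.2 and 161.0 CPM after sevoflurane (-0.74, SE 0.21, adjusted p = 0.245). Without control replicate 3, VCAN had -1.08 (adjusted p = 0.0058, in a range of 0.00191 to 0.409), and without control replicate 2 it had -0.31. HAS2, a hyaluronan synthase, had 3.61 and 4.51 CPM in the controls and 1.71 and 1.78 CPM after sevoflurane (-1.21, SE 0.47, adjusted p = 0.421). Of the 19 tested partners, 7 (these 3 among them) had both sevoflurane libraries below both controls and 2 had both above, beside 20.4% and 20.8% of all tested genes.

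S100B, a calcium-binding protein of astrocytes that oligodendrocytes also express, had 112.9 and 88.1 CPM in the controls and 50.1 and 68.8 CPM after sevoflurane. The lower control was 1.28 times the higher sevoflurane library, the narrowest gap of the 7 genes. Its log2 fold change was -0.76 (SE 0.19, 95% interval -1.19 to -0.33, adjusted p = 0.168 by edgeR). It was called without sevoflurane replicate 3 (-1.002, adjusted p = 0.0149), in a range of adjusted p from 0.00143 to 0.738 over the alternatives. Of a list of 14 (other S100 genes and the receptor AGER), 6 were tested and none was called by edgeR (1 had an unadjusted p under 0.05, and 0 were called by DESeq2 or limma-voom), with a median of -0.38. S100A16 had 36.1 and 33.9 CPM in the controls and 21.7 and 22.2 CPM after sevoflurane (-0.67, SE 0.17, adjusted p = 0.183), with S100A1 at -0.28 (adjusted p = 0.650) and S100A11 at -0.60 (adjusted p = 0.663). These last 2 values moved with single libraries. S100A1 ranged from -0.07 without control replicate 2 to -0.46 without control replicate 3, and S100A11 from -0.19 to -0.91 in the same fits, with -0.37 without sevoflurane replicate 3. The other 7 found had at most 5 counts in any library.

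AGT, the angiotensinogen that astrocytes secrete as the precursor of angiotensin peptides, had 168.5 and 126.5 CPM in the controls and 77.1 and 81.6 CPM after sevoflurane. The sevoflurane libraries were close together, and the lower control was 1.55 times the higher of them. The log2 fold change was -0.90 (SE 0.16, 95% interval -1.26 to -0.53, adjusted p = 0.0509 by edgeR), just above the threshold, so it was not called. It was called in 8 of 11 alternatives, with adjusted p from 2.74e-05 (replicate number as a block) to 0.0953. Among them it was called without control replicate 2 (-0.67, adjusted p = 0.0441), control replicate 3 (-1.09, 0.0113) and sevoflurane replicate 3 (-0.94, 0.0195), and not without sevoflurane replicate 2 (-0.85, 0.0615).

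Of 13 other listed genes of the renin-angiotensin system, 7 were tested, and none was called by edgeR (1 had an unadjusted p under 0.05, and 0 were called by DESeq2 or limma-voom), with a median of 0.14. ENPEP, an aminopeptidase that cleaves angiotensin II, had 19.0 and 17.9 CPM in the controls and 12.8 and 11.9 CPM after sevoflurane (-0.58, SE 0.21, adjusted p = 0.387). ANPEP had 0.73 (SE 0.66, adjusted p = 0.796) and LNPEP 0.14 (SE 0.14, adjusted p = 0.825). Leaving out a control gave ANPEP 1.54 (replicate 2) or 0.26 (replicate 3), and leaving out a sevoflurane library gave 0.04 (replicate 2) or 1.21 (replicate 3). The latter 2 fits gave LNPEP 0.22 and 0.06. The receptors AGTR1 and AGTR2 were below the filter, with at most 5 counts in any library, so that a change in them was not detectable at this depth.

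**Figure D2:**
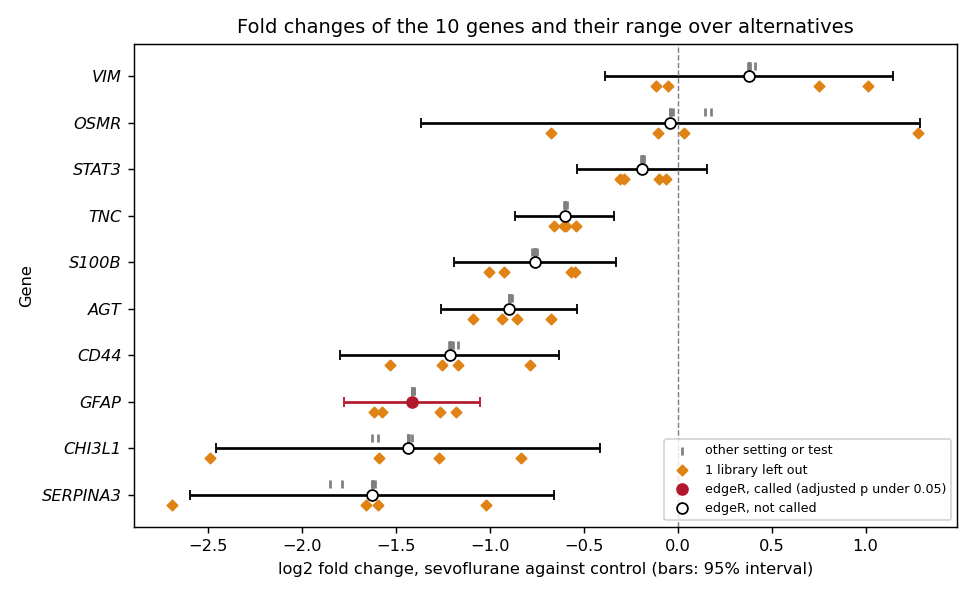
Log2 fold change (sevoflurane against control) of each of the 10 genes by edgeR, with its 95% interval, ordered by size. Grey ticks are other settings or tests and orange diamonds are fits without 1 library. GFAP is called throughout. All genes except VIM and OSMR lie below 0 throughout, while VIM and OSMR take either sign when a library is left out.

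The within-group spread of the 10 genes was uneven. Control replicate 2 was above control replicate 3 for 9 of the 10, CHI3L1 being the exception. Sevoflurane replicate 2 was above sevoflurane replicate 3 for 2 of the 10, VIM and STAT3. The matching shares over all tested genes were not counted, so these orders cannot be called particular to the 10 genes. Together the 10 genes took 0.629% and 0.446% of all counts in the controls and 0.213% and 0.247% after sevoflurane. GFAP made up 85.1% and 84.1% of that sum in the controls and 72.0% and 77.2% after sevoflurane.

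Homeostatic astrocyte genes, such as glutamate transporters and gap junction and water channel proteins, were set beside the 10 genes. Of 24, none was called by edgeR in either direction (5 had an unadjusted p under 0.05, with 1 called by DESeq2 and 0 by limma-voom), and the median log2 fold change was -0.14. Their summed CPM was 11201 and 10972 in the controls and 11058 and 10014 after sevoflurane, and the groups overlapped. SLC1A2 and GLUL had the highest means in that sum. By single genes, both sevoflurane libraries lay below both controls in 9 of the 24 and above both in 3. The shares over all tested genes were 20.4% and 20.8%. The 5 genes with an unadjusted edgeR p under 0.05 (KCNJ10, HEPACAM, AQP4, APOE and MLC1) all had log2 fold changes below 0. That p was reached by 9.92% of all tested genes. KCNJ10, a potassium channel, had 206.7 and 260.8 CPM in the controls and 148.0 and 155.9 CPM after sevoflurane (-0.62, SE 0.14, adjusted p = 0.128), and -0.78 without control replicate 2 (adjusted p = 0.0126, in a range of 0.0101 to 0.52). HEPACAM, an adhesion molecule of astrocytes, had -0.40 (SE 0.14, adjusted p = 0.347). The water channel AQP4 had 509.4 and 342.0 CPM in the controls and 291.8 and 313.3 CPM after sevoflurane (-0.49, SE 0.18, adjusted p = 0.367). Without control replicate 3, AQP4 had -0.75 (adjusted p = 0.0148, in a range of 0.0148 to 0.925), and without control replicate 2 it had -0.18.

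Each of the 10 genes was then divided by the geometric mean of these 24 genes (CPM + 1) in the same library, which was 214.5 and 209.4 in the controls and 205.8 and 186.7 after sevoflurane. The GFAP ratio was 24.5 and 18.5 in the controls and 7.44 and 10.2 after sevoflurane, a log2 difference of -1.29. Log2 differences here are between group means of log2 ratios and do not come from the edgeR fit. They are therefore not comparable with the log2 fold changes above. The same 7 genes as before lay below both controls in both sevoflurane libraries by this ratio, with log2 differences from -1.75 for SERPINA3 to -0.49 for TNC. The geometric mean varied less between libraries than the narrowest gap of the 7 genes in CPM (1.28-fold, S100B). The division therefore could not make any of the 7 overlap, and their separation here adds nothing to that in CPM. VIM (0.53), OSMR (0.42) and STAT3 (-0.07) overlapped between the groups here too.

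**Figure D3:**
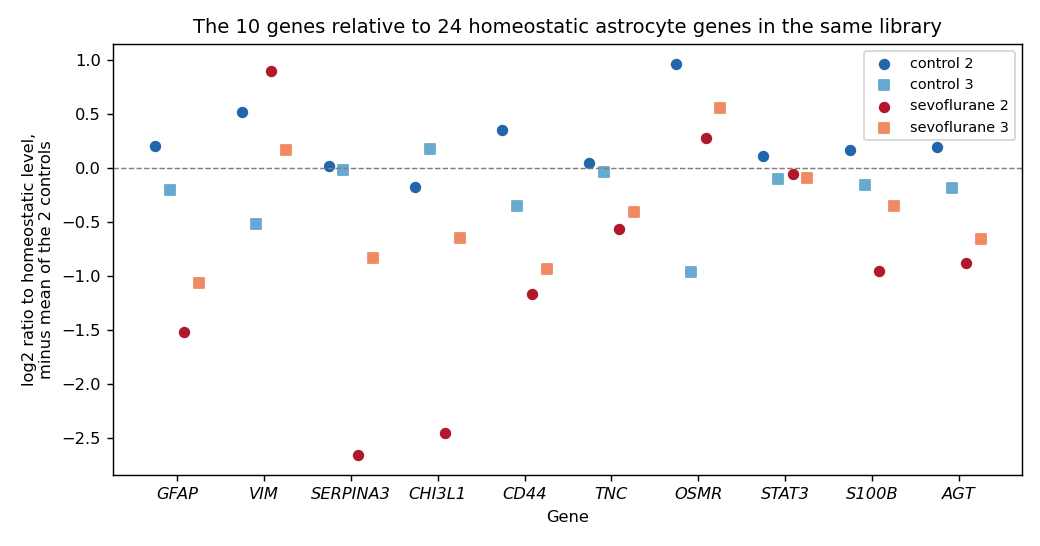
Log2 ratio of each of the 10 genes to the geometric mean of 24 homeostatic astrocyte genes in the same library, minus the mean of the 2 controls, for the 4 libraries. GFAP, SERPINA3, CHI3L1, CD44, TNC, S100B and AGT lie below both controls in both sevoflurane libraries, as their separation in CPM already required.

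Of 31 further genes listed for reactive astrocytes, 24 were tested, 1 was lower (CRYAB), 0 were higher and 23 were not called, with a median of 0.06. Both sevoflurane libraries lay below both controls in 6 of the 24 and above them in 7, shares near those of all tested genes (20.4% and 20.8%). An unadjusted edgeR p under 0.05 was reached by 7 of the 24, against 9.92% of all tested genes. Of these, CRYAB, C3 and NES had log2 fold changes below 0. EMP1 (2.44), TM4SF1 (1.58), MT1X (0.81) and MT2A (0.85) were above 0 and were not called. EMP1 rested on counts of 5 and 1 in the controls and 32 and 11 after sevoflurane. CRYAB, a small heat shock protein of reactive astrocytes that oligodendrocytes also express, had 43.4 and 87.9 CPM in the controls and 12.6 and 18.6 CPM after sevoflurane, and it fell (log2 fold change -2.07, SE 0.32, adjusted p = 0.0304). It was not called with no filter (adjusted p = 0.064, in a range of 6.86e-18 to 0.064). C3, the complement component that some reactive astrocytes and microglia make, had 247.4 and 185.5 CPM in the controls and 98.1 and 130.2 CPM after sevoflurane (-0.92, SE 0.18, adjusted p = 0.0681). Without control replicate 3, C3 had -1.12 (adjusted p = 0.0263), and without sevoflurane replicate 3 it had -1.14 (adjusted p = 0.000759), in a range of 4.43e-06 to 0.169. TM4SF1, a membrane protein listed among reactive genes, had 1.37 and 0.928 CPM in the controls and 3.76 and 3.22 CPM after sevoflurane (1.58, SE 0.52, adjusted p = 0.320). The 7 genes below the filter, LCN2, STEAP4 and CXCL10 among them, had at most 23 counts in any library.

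**Figure D4:**
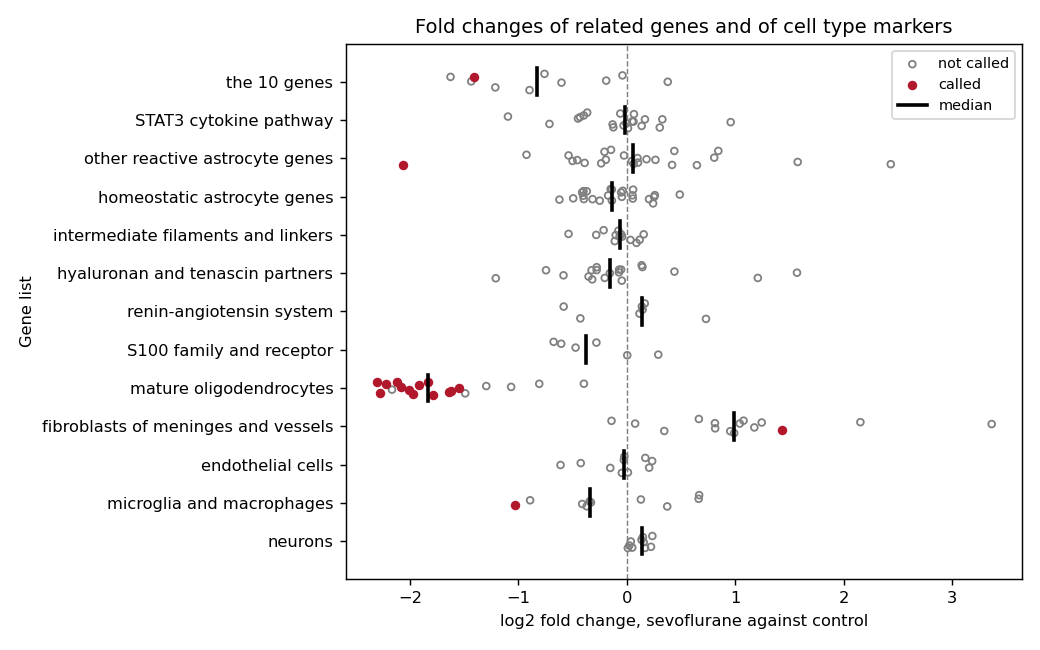
Log2 fold change (sevoflurane against control) of every tested gene in the related lists and the cell type marker lists, with called genes filled in red and the median as a black bar. The 10 genes have a median of -0.83, the other reactive astrocyte genes 0.06, the homeostatic astrocyte genes -0.14 and the mature oligodendrocyte markers -1.83.

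Markers of other cell types were compared in the same fit. Of 19 tested mature oligodendrocyte markers, 13 were lower and 6 not called, and their summed CPM was 9515 and 15015 in the controls and 2490 and 3714 after sevoflurane. The order of the 4 libraries by that sum was also their order by CHI3L1, with control replicate 3 highest and sevoflurane replicate 2 lowest. The other 6 genes without overlap between groups (GFAP, SERPINA3, CD44, TNC, S100B and AGT) were highest in control replicate 2. Of 10 microglia and macrophage markers, 1 was lower (CX3CR1) and 9 not called, with sums of 373.5 and 336.7 in the controls and 258.8 and 313.0 after sevoflurane. These markers did not move together. Both sevoflurane libraries lay below both controls for 5 of them and above both for 4, C1QA (0.66) and C1QB (0.67) included. The shares over all tested genes were 20.4% and 20.8%. The part of these cells in the levels of the 10 genes, CRYAB and C3 was not tested. Of 10 endothelial markers none was called by edgeR (1 had an unadjusted p under 0.05, and DESeq2 and limma-voom called 0), with sums from 302.4 to 324.3 CPM. Of 10 neuron markers none was called either (0 had an unadjusted p under 0.05, and DESeq2 and limma-voom called 0), with sums of 8001 and 9730 in the controls and 9735 and 9708 after sevoflurane. Of 15 fibroblast markers, 1 was higher (SLC6A13) and 14 were not called, with a median log2 fold change of 0.99. Log2 fold changes were above 0 for 14 of the 15. An unadjusted edgeR p under 0.05 was reached by 5, against 9.92% of all tested genes. Both sevoflurane libraries lay above both controls for 5 and below both for 1.

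Profiles most like those of the 10 genes were found by the distance between log2 CPM values, centred over the 4 libraries, among 9947 genes with a symbol and a mean of at least 10 CPM. With 4 libraries of 2 groups such a likeness is a description only. The genes nearest GFAP were NR4A3, an activity-induced nuclear receptor (distance 0.13), INHBA, a subunit of activin (0.32), and SHROOM4, an actin-binding protein (0.32). NR4A3 had 67.3 and 49.2 CPM in the controls and 17.6 and 23.8 CPM after sevoflurane and was called (-1.49, adjusted p = 0.0223). INHBA (-1.33, adjusted p = 0.0431) and SHROOM4 (-1.22, adjusted p = 0.0226) were called as well. INHBA was not called without control replicate 2 (adjusted p = 0.0545), control replicate 3 (0.0671) or sevoflurane replicate 2 (0.0701), nor with library size alone (0.0614) or no filter (0.0795), in a range of 0.0002 to 0.0795.

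Likeness is given for 3 more of the 10 genes, chosen after their values were seen. RAB7B, a small GTPase (distance 0.20), and the carboxypeptidase M gene (0.26) lay nearest CHI3L1, followed by EFHD1 (0.55). The same first 2 genes, in the other order (carboxypeptidase M 0.44, RAB7B 0.48), were the nearest to SERPINA3. The third was ERBB3 (0.52), a neuregulin receptor of oligodendrocyte-lineage and Schwann cells that was called lower (-1.84, adjusted p = 0.0213). ERBB3 had 80.7 and 83.9 CPM in the controls and 15.6 and 30.2 CPM after sevoflurane, with the same order of libraries within the sevoflurane group as SERPINA3 and CHI3L1. Nearest CD44 were SSPN, a muscle and glial membrane protein (0.25), ID3, an inhibitor of differentiation factors (0.27), and ETV6, a transcription factor (0.27). None of these 3 was called by edgeR with all libraries (SSPN adjusted p = 0.091, ID3 0.128, ETV6 0.152). DESeq2 called all 3 (adjusted p = 0.0129, 0.00825 and 0.0243), as did edgeR without control replicate 3 (0.0372, 0.0169 and 0.0263). Without sevoflurane replicate 2, SSPN (0.0489) and ID3 (0.0187) were called, and without sevoflurane replicate 3 ETV6 (0.0389). Over the alternatives the adjusted p ranged from 0.000877 to 0.168 for SSPN, 0.00022 to 0.225 for ID3 and 0.00172 to 0.275 for ETV6.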

How the data were processed

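RNA was measured by RNA-seq in 4 libraries, and the authors deposited raw counts of reads per gene as 1 table. The submitters' processing notes name HISAT2 as the aligner. Its version, the counting program, the genome build, the annotation and the strand setting were not found in the labels or the table, so reads of overlapping genes, antisense partners and near-identical copies cannot be told apart. No coordinates or sequences were used. Of 220 list and marker genes, 214 matched by symbol, 3 through a RefSeq gene number (names only) and 3 were not found.

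The test was run in edgeR 4.0.16 under R 4.3.3: its filter on low counts (minimum count 10, minimum total 15), TMM scaling (factors 0.969 to 1.02), and the two-sided quasi-likelihood F test on group alone, all 4 libraries in the fit. The steps were tested on simulated counts. The control libraries held 10059944 (replicate 2) and 7793757 (replicate 3) counts, and the sevoflurane libraries 11703857 (replicate 2) and 11706115 (replicate 3). Replicates differed beyond sampling noise (chi-square per degree of freedom 12.4 and 6.86). Poisson intervals are exact, at 95%, and cover counting error only.

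The 10 genes and all lists were chosen with earlier results of these data known. Genes named are the 10, every called gene and the 3 with the smallest p of each related list, and the 3 nearest profiles (marker lists are given by their sums and called genes). For any other gene named, the values were seen first. A few genes of the lists are not reported here by name. The fit was repeated without each library, with the replicate number as a block, by limma-voom (limma 3.58.1) and by DESeq2 1.42.0. It was also repeated with scaling by library size only or by DESeq2's size factors, and with no filter on low counts or a higher one (a mean of 5 CPM, and 1 CPM or more in 2 libraries).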

Additional observations from a re-analysis of the deposited data

How the results depend on the processing

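GFAP kept its direction and its call in all 11 alternatives, and STAT3 its negative sign and lack of a call. SERPINA3, CHI3L1, CD44, TNC, S100B and AGT kept a negative sign too, with calls that depended on the setting. Over all genes, 106 were called (95 lower, 11 higher). The count was 60 with no filter (57 lower, 3 higher), 279 by DESeq2 (219 lower, 60 higher) and 110 by limma-voom (103 lower, 7 higher). It was 107 with DESeq2's size factors and 130 with the stricter filter, which left 13063 genes to test. With 1 library left out, where the lone library of a group is assumed to vary like the other group, it ranged from 145 to 283 (118 to 232 lower, 27 to 81 higher). The cause was not tested. Of the 10 genes, 1 was called in the fit reported, 2 with DESeq2's size factors, 2 with the stricter filter, 6 by DESeq2, 2 by limma-voom and 2 to 6 with a library left out.

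AGT was called with DESeq2's size factors (-0.90, with an adjusted p of 0.05 as rounded), the stricter filter (-0.89), DESeq2 (-0.90) and limma-voom (-0.89). DESeq2 also called SERPINA3 (-1.62), CD44 (-1.21), TNC (-0.60) and S100B (-0.76). OSMR turned positive by limma-voom (0.15). With a library left out, log2 fold changes ranged from -1.61 to -1.18 for GFAP, -0.11 to 1.01 for VIM, -2.69 to -1.02 for SERPINA3, -2.49 to -0.83 for CHI3L1, -1.53 to -0.79 for CD44, -0.66 to -0.54 for TNC, -0.68 to 1.28 for OSMR, -0.31 to -0.06 for STAT3, -1.002 to -0.55 for S100B and -1.09 to -0.67 for AGT. NEFL ranged from -0.12 without control replicate 2 to 0.50 without control replicate 3. OSMR was removed by the stricter filter, and DESeq2 gave it no adjusted p.

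Called genes among the other reactive astrocyte genes numbered 0 with no filter, 2 by DESeq2 and 1 to 2 with a library left out, against 1 in the fit reported. The other lists had 0 in that fit. The homeostatic astrocyte genes had 1 by DESeq2 and 0 to 2 with a library left out, and the hyaluronan and tenascin partners 1 by DESeq2 and 0 to 1. Intermediate filaments and linkers had 0 to 2 with a library left out.

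The replicate numbers do not pair the libraries by any label, and same-numbered libraries did not deviate together (r = 0.00898 over 17693 genes). The fit with the replicate block called 511 genes (341 lower, 170 higher) and 7 of the 10: GFAP, SERPINA3 (-1.78), CHI3L1 (-1.59), CD44 (-1.17), TNC (-0.60), S100B (-0.76) and AGT (-0.88), with OSMR at 0.18. It called 2 genes of the cytokine pathway, 2 other reactive astrocyte genes, 1 homeostatic gene and 2 hyaluronan and tenascin partners. Of the alternatives, this fit gave the smallest adjusted p for GFAP, CD44, S100B and AGT, and for other named genes such as CRYAB and C3.

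Depth limits the genes below the filter. OSMR had few counts, and the counting intervals of its 2 controls did not overlap.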
